A study of Mus musculus with 4 samples.

Results

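CISH, the SOCS proteins and the PIM kinases are encoded by genes that cytokines switch on through the transcription factor STAT5. The levels of 7 of them, Cish, Socs1, Socs2, Socs3, Pim1, Pim2 and Pim3, were compared in 32Dcl3-Abl1ko cells with and without IL-3. The members were chosen by gene symbol, and each of the 7 symbols was found once among the 23756 genes of the count table. All 7 passed the filter for expression.

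RNA-seq libraries were made from 2 cultures with IL-3 (Abl1ko/IL3+) and 2 without IL-3 (Abl1ko/IL3-). 32Dcl3 is a murine hematopoietic line that depends on IL-3, and both groups carry the CRISPR/Cas9 knockout of Abl1. The Abl1ko/IL3- cells are growth factor-independent cells that grew out after gradual withdrawal of IL-3, so they were not freshly starved. The paper used 2 guide RNAs and selected single clones, and describes an IL-3-independent population from each guide. The labels do not say which guide or clone each library came from. Time without IL-3 is not given in the labels.

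When IL-3 binds its receptor, the JAK2 kinase is activated and phosphorylates STAT5A and STAT5B, which then bind DNA at sites of the form TTCNNNGAA. CISH and the SOCS proteins close a feedback loop: they carry an SH2 domain that docks on the receptor or the JAK kinase, and a SOCS box that recruits a ubiquitin ligase. SOCS1 and SOCS3 also block JAK activity directly. The PIM proteins are serine/threonine kinases that are active as soon as they are made. Their protein amounts were not measured in these libraries. The PIM kinases support survival and cell cycle entry of myeloid cells.

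The letters TTCNNNGAA, which read the same on both strands, were searched for in RefSeq promoters of the GRCm38.p6 build. Each ran from 250 bases before a gene's RefSeq start to 50 bases from that start on. 6 of the 7 genes had an entry, and 2 of those, Cish and Socs3, held the letters. Among all 32851 promoter entries, 8.30% held them at least once and 0.457% more than once. Cish was among the latter, with matches that begin at base 1 and base 12 from its RefSeq start. Socs3 had a single match that begins 154 bases before its RefSeq start. Both RefSeq starts lie inside the longer spans of these genes given below, and so do the matches. The windows around the matches are shown because they hold the only letters of that form in these promoters. The Cish window is on the plus strand at chr9:107296654-107296683, within a non-coding part of an exon of the GENCODE M21 transcript Cish-201. The Socs3 window is on the minus strand at chr11:117969501-117969530, in an intron of the non-coding transcript Socs3-202. Capitals mark the matches, and both read 5′ to 3′.
Cish: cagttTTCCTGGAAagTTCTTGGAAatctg
Socs3: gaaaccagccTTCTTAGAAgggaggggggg

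For Pim3, which differed most between the groups, the 250 bases before the RefSeq start are shown for comparison (plus strand, chr15:88861944-88862193). They held no match, which says only that these letters are not in the window. The promoters of Socs1, Pim1 and Pim2 had no match either.
Pim3: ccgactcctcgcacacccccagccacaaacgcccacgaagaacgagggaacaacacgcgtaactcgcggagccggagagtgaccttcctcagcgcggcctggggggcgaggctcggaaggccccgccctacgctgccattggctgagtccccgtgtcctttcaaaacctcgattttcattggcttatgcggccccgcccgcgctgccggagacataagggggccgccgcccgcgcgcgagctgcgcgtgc

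The libraries held from 48953174 to 60382588 counts, and 3 counts corresponded to at most 0.0613 CPM (the count scaled to library size). At a threshold of 0.05, edgeR's quasi-likelihood test called 0 of 16535 genes after adjustment and 978 before it, while DESeq2 called 271 after adjustment. Abl1, the edited gene in both groups, was still transcribed in all 4 libraries (1322 and 2222 counts with IL-3, against 1544 and 2256 without) and so does not check the labels. The labels call the line both bone marrow and pre-B. The 8 myeloid progenitor markers, led by Mpo, summed to 2520 and 1869 CPM with IL-3, and were lower in both Abl1ko/IL3- libraries at 1251 and 931 CPM, although Kit had at most 4 counts in any library. The 6 B lineage markers that could be analysed summed to between 19.6 and 23.4 CPM. Cd79b gave 10.1 to 17.5 CPM of that sum, and Cd79a 10.5 CPM in Abl1ko/IL3+ replicate 2, while Rag1 had at most 4 counts. Of 8 markers of maturing granulocytes, 6 were higher in both Abl1ko/IL3- libraries than in either Abl1ko/IL3+ library, among them S100a9 (7.71 and 1.47 CPM with IL-3, against 138 and 389 without); of all genes tested, 19.4% were so in normalized CPM. Erythroid markers summed to 271 and 10148 CPM in the Abl1ko/IL3+ replicates 1 and 2, and to 4854 and 2695 CPM in the Abl1ko/IL3- replicates 1 and 2. Fewer cells of a type and less RNA per cell cannot be told apart in such libraries.

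The 7 genes had no common direction without IL-3. In Abl1ko/IL3- against Abl1ko/IL3+ cells, 3 had a higher and 4 a lower fitted level, with a median log2 fold change of -0.23 beside -0.027 over all genes tested. None of the 7 had an adjusted p-value under 0.05 in edgeR, where 0% of all genes did. A single member, Pim3, had an unadjusted p-value under 0.05, where 5.91% of all genes did, 3.36% as lower and 2.56% as higher without IL-3. Pim3 was also the only member whose 2 groups did not overlap in normalized CPM (after edgeR's TMM scaling), with both Abl1ko/IL3- libraries under both Abl1ko/IL3+ libraries. Such a gap downward was found for 17.9% of all genes tested, one upward for 19.4%, and either for 37.3%. With 2 libraries against 2, an exact permutation test of one gene cannot give a two-sided p under 0.333, so single genes were read from the fit across all genes.

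**Figure D1:**
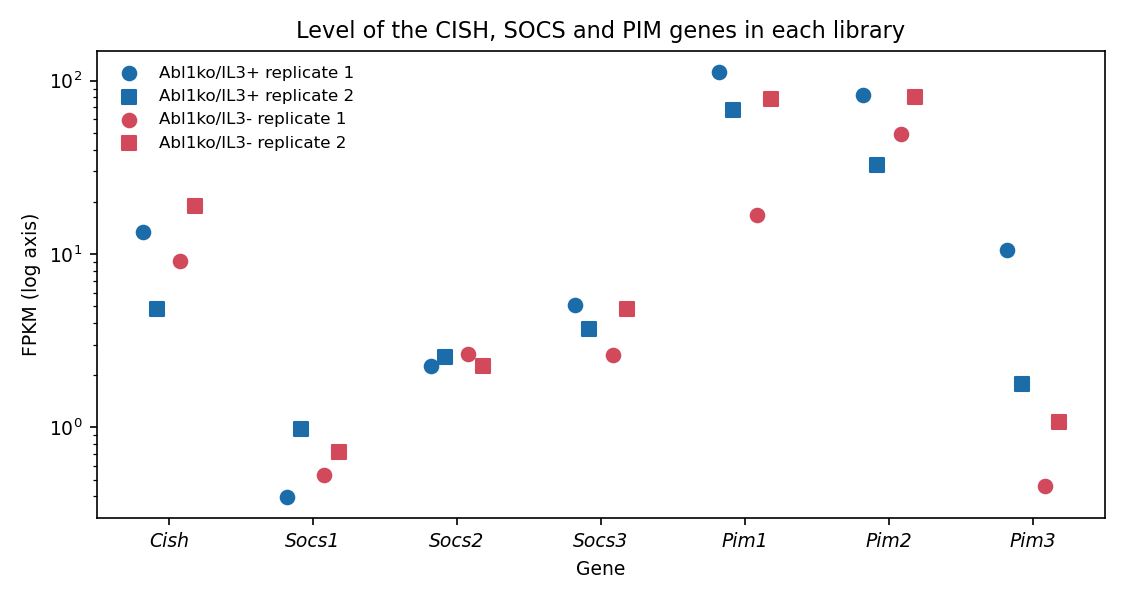
FPKM (a depth-scaled count per kilobase, log axis) of each gene in the 4 libraries, with blue for Abl1ko/IL3+, red for Abl1ko/IL3-, circles for replicate 1 and squares for replicate 2. The ranges of blue and red points overlap for every gene but Pim3, and Socs2 stays between 2.26 and 2.66 FPKM.

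In FPKM, Pim1 and Pim2 were the top pair in all 4 libraries, above every feedback inhibitor, and Cish came next, while Socs1 or Pim3 was last. Averaged over the 4 libraries, Pim1 stood at 68.7, Pim2 at 61.2, Cish at 11.6, Socs3 at 4.05, Pim3 at 3.45, Socs2 at 2.43 and Socs1 at 0.658 FPKM. Neighbours in this order often lay within each other's spread: with IL-3 the mean was 89.8 ± 31.6 for Pim1 and 57.6 ± 35.5 FPKM for Pim2 (SD, n = 2), and 4.37 ± 0.981 for Socs3 and 6.14 ± 6.16 FPKM for Pim3. The FPKM values divide by a length in proportion to the union of all exons of a gene, which for Socs2 is 9531 bases although its longest coding transcript has 2222. Per kilobase of the longest coding transcript, a scale added after seeing the data, Socs2 was above Socs3 in all 4 libraries, and in Abl1ko/IL3+ replicate 2 it was level with Cish (12.3 and 12.2 CPM per kilobase). On that scale Pim1 and Cish were also nearly level in Abl1ko/IL3- replicate 1 (23.99 and 23.4 CPM per kilobase).

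Cish encodes one of the feedback inhibitors described above and is among the most direct readouts of STAT5 in myeloid cells. The gene lies on chromosome 9 from 107296026 to 107302784 (plus strand). Its counts with IL-3 were 5765 and 2093 (13.4 and 4.80 FPKM), against 3258 and 7661 without IL-3 (9.06 and 19.0 FPKM). The highest library was Abl1ko/IL3- replicate 2 and the lowest Abl1ko/IL3+ replicate 2, so a culture without IL-3 held the most Cish RNA. The groups overlapped, because Abl1ko/IL3- replicate 1 lay between both Abl1ko/IL3+ libraries. In log2 units Cish differed by 0.65 (standard error 0.57, 95% interval -0.82 to 2.11, adjusted p = 0.929 in edgeR). Without Abl1ko/IL3+ replicate 1 it was 1.39, and without Abl1ko/IL3- replicate 2 it was 0.094. The sum of the 8 markers of maturing granulocytes, most of it from Ngp, also had their highest library in Abl1ko/IL3- replicate 2 and their lowest in Abl1ko/IL3+ replicate 2. They stood at 869 and 265 CPM in the Abl1ko/IL3+ libraries against 924 and 5628 CPM in the Abl1ko/IL3- libraries, and their part in the Cish values was not tested. Exons of the antisense gene Gm17041 and of Gm17040, both on the opposite strand, cover 7.46% and 4.07% of the exon bases of Cish, and Gm17040 had at most 26 counts.

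Socs2, whose product restrains growth hormone signalling through STAT5, was the steadiest member. It is on chromosome 10 from 95385362 to 95417180 (minus strand). Its counts were 1447 and 1645 with IL-3 (2.26 and 2.54 FPKM), and 1423 and 1357 without IL-3 (2.66 and 2.27 FPKM). The highest library exceeded the lowest by 1.35 times in normalized CPM, a ratio smaller than that of all but 7.74% of the genes tested. The log2 fold change was 0.011 (standard error 0.37, 95% interval -0.94 to 0.97, adjusted p = 0.999 in edgeR), so the interval still spans changes of nearly 1 log2 unit either way.

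Socs3, which blocks JAK kinases at receptors of the gp130 and G-CSF type, is on chromosome 11 from 117966079 to 117970047 (minus strand). With IL-3, 982 and 722 counts were found (5.07 and 3.68 FPKM), against 425 and 876 without IL-3 (2.62 and 4.83 FPKM). Abl1ko/IL3- replicate 1 was the low library, and Abl1ko/IL3- replicate 2 lay inside the range with IL-3. In log2 units Socs3 differed by -0.25 (standard error 0.45, 95% interval -1.40 to 0.90, adjusted p = 0.975 in edgeR). Its sign turned without Abl1ko/IL3- replicate 1, to 0.082.

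Socs1, a potent JAK inhibitor and a brake on interferon signalling, had the lowest FPKM among Cish and Socs1 to Socs3. It is on chromosome 16 from 10782240 to 10785536 (minus strand). Its counts were 79 and 194 with IL-3 (0.399 and 0.977 FPKM), and 87 and 132 without IL-3 (0.533 and 0.721 FPKM). Both Abl1ko/IL3- libraries lay between the Abl1ko/IL3+ replicates. Its log2 fold change was -0.23 (standard error 0.71, 95% interval -2.06 to 1.60, adjusted p = 0.987 in edgeR) and turned to 0.74 without Abl1ko/IL3+ replicate 2.

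Summed over Cish and Socs1 to Socs3, the feedback genes reached 21.1 and 12.0 FPKM with IL-3, and 14.9 and 26.8 FPKM without IL-3. The groups overlapped. Cish made up 63.4% and 40.02% of the sum with IL-3, against 60.9% and 70.9% without it. The ratio of Cish to Socs2 in FPKM was 5.93 and 1.89 with IL-3, against 3.40 and 8.39 without it, while Socs2 itself varied little. These shares and ratios depend on the length used, since the exon union has 6419 bases for Cish and 9531 for Socs2. The longest coding transcripts have 2850 and 2222 bases. Per kilobase of those, Cish had 33.9 and 12.2 CPM with IL-3, and 23.4 and 48.6 without. Socs2 had 10.9 and 12.3 with IL-3, and 13.1 and 11.0 without.

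Pim1, a kinase gene first found as a site of retroviral insertion in lymphomas, lies on chromosome 17 from 29490753 to 29496112 (plus strand). With IL-3, 25265 and 15376 counts were found (112 and 67.4 FPKM), against 3168 and 16576 without IL-3 (16.8 and 78.6 FPKM). Abl1ko/IL3- replicate 1 was far under the other 3 libraries, while Abl1ko/IL3- replicate 2 was inside the range with IL-3. For Pim1 the log2 fold change was -0.94 (standard error 0.73, 95% interval -2.82 to 0.94, adjusted p = 0.919 in edgeR). It was -0.24 without Abl1ko/IL3- replicate 1 and -2.34 without Abl1ko/IL3- replicate 2, so the size of the Pim1 difference rests on which culture stands for the group. Exons of the antisense gene Gm26885 cover 14.5% of the exon bases of Pim1, and that gene had between 28 and 374 counts, the most in Abl1ko/IL3+ replicate 1.

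Pim2, a kinase that overlaps with Pim1 in function and supports the survival of blood cells, is on chromosome X from 7878262 to 7883432 (plus strand). Its counts were 15493 and 6178 with IL-3 (82.7 and 32.6 FPKM), and 7737 and 14025 without IL-3 (49.4 and 80.0 FPKM). Both Abl1ko/IL3- libraries lay between the Abl1ko/IL3+ replicates in FPKM. Its log2 fold change was 0.19 (standard error 0.49, 95% interval -1.06 to 1.44, adjusted p = 0.983 in edgeR), and it turned to -0.25 without Abl1ko/IL3+ replicate 2 and to -0.13 without Abl1ko/IL3- replicate 2.

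Pim3, the least abundant of the kinase genes in these cells, showed the largest difference among the members. It is on chromosome 15 from 88862186 to 88865726 (plus strand). Its counts with IL-3 were 1707 and 294 (10.5 and 1.78 FPKM), against 63 and 164 without IL-3 (0.459 and 1.07 FPKM). Abl1ko/IL3+ replicate 1 was far above the rest, and the gap between the groups was that between 1.78 and 1.07 FPKM. In normalized CPM the mean was 15.9 ± 14.9 with IL-3 and 2.07 ± 1.07 in its absence (SD, n = 2). For Pim3 the log2 fold change was -2.94, that is 7.69-fold lower without IL-3 (standard error 0.94, 95% interval -5.36 to -0.53, unadjusted p = 0.0259, adjusted p = 0.782 in edgeR), and 2.49% of all genes tested had a larger absolute log2 fold change.

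DESeq2's Wald test gave Pim3 an adjusted p of 0.0483, where that test called 1.64% of all genes and 0.968% as lower. Over the other settings the adjusted p of Pim3 ranged from 0.183 to 0.9999, and the direction was the same in each of them. Without Abl1ko/IL3+ replicate 1 the log2 fold change shrank to -1.37. The summed level of 6 mast cell and basophil markers was also highest in that library, at 809 and 104 CPM for the Abl1ko/IL3+ replicates and 160 and 251 CPM for the Abl1ko/IL3- replicates. That sum came mostly from Cpa3, Fcer1a and Gata2, while Mcpt8 was lowest in that library (20.5 CPM, against 45.4, 69.2 and 35.5 in the others) and Ms4a2 was not highest there. Like Pim3, the summed myeloid progenitor markers given above were lower in both Abl1ko/IL3- libraries, and most of that sum came from Mpo. Singly, 2 of the 8 markers were lower in this way, where 17.9% of all genes tested were so in normalized CPM. The granulocyte markers named above differed in the opposite direction. The part of these cell markers in the Pim3 values was not tested.

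**Figure D2:**
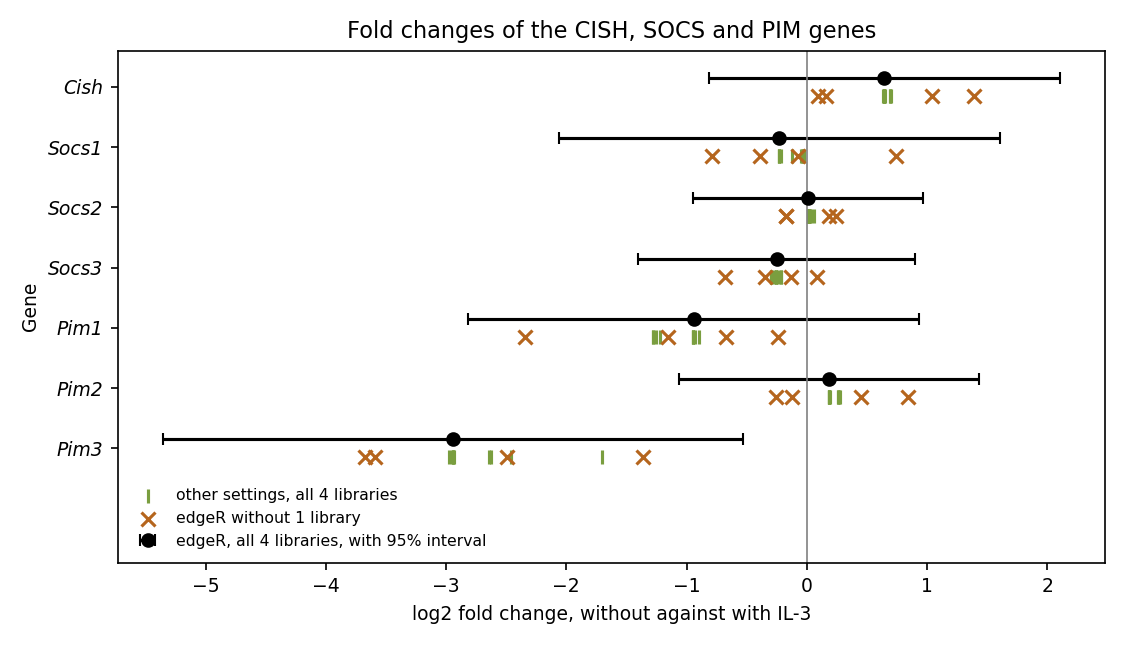
Each gene's log2 fold change, Abl1ko/IL3- over Abl1ko/IL3+ (horizontal axis), with the edgeR value and its 95% interval in black, other settings as green bars and fits without 1 library as brown crosses. Pim3 stays left of 0 throughout, from -3.67 to -1.37, while the crosses of Socs1, Socs2, Socs3 and Pim2 fall on both sides of 0.

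The order of Pim1 and Pim2 differed between the groups. Pim1 exceeded Pim2 in FPKM with IL-3, at 1.36 and 2.07 times, and was under Pim2 without it, at 0.340 and 0.983 times, so both were close to level in Abl1ko/IL3- replicate 2. Per kilobase of the longest coding transcript the ratios were 1.24 and 1.89 with IL-3, against 0.310 and 0.896 without. Pim3 gave 5.11% and 1.75% of the summed PIM FPKM with IL-3, and 0.688% and 0.672% without it. The sum itself overlapped, at 205 and 102 FPKM with IL-3 and 66.7 and 159.7 FPKM without.

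Ratios of this kind are free of the scaling between libraries, but they were picked after the values were seen. Of the 21 ratios between the 7 genes, 11 did not overlap between the groups, among them 5 of the 6 with Pim3. Among all pairs of genes tested, 38.2% did not overlap. The 21 ratios share 7 genes, so a gap in 1 gene, such as Pim3, is counted several times among them. The widest gap was that of Cish to Pim3, whose log2 ratio in CPM was 1.75 and 2.82 with IL-3, against 5.65 and 5.53 without it. For Cish to Pim1 it was -2.13 and -2.88 with IL-3, against 0.040 and -1.11 without, so Cish stood higher relative to Pim1 in both cultures without IL-3.

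**Figure D3:**
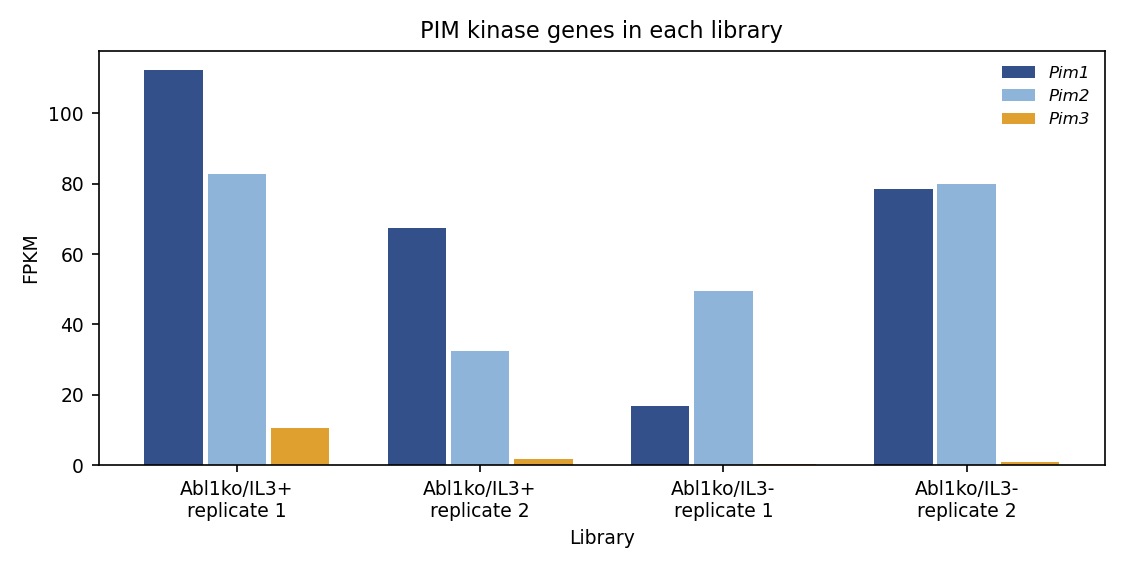
FPKM of Pim1, Pim2 and Pim3 (vertical axis from 0) in each of the 4 libraries, 1 bar per gene and library with no error bar. The Pim1 bar is taller than the Pim2 bar in both Abl1ko/IL3+ libraries, and is the shorter one in both Abl1ko/IL3- libraries, at 78.6 against 80.0 FPKM in replicate 2.

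The members had different patterns over the 4 libraries. Likeness was measured as the root mean square difference of log2 CPM, centred on each gene's mean over the 4 libraries, and is a description with no test. The closest pair was Cish and Pim2, 0.26 apart, both above their own mean in the first Abl1ko/IL3+ and the second Abl1ko/IL3- library and under it in the other two. The most distant pair was Socs1 and Pim3, 1.88 apart. Pim1 was 0.96 from Pim2 and 0.99 from Pim3.

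Among all genes tested, the genes nearest to Cish were Vwa1 (0.066) and Ube4a (0.080), and those nearest to Pim1 were Gm7327 (0.050) and Nkiras2 (0.085). Pim2 lay closest to Dgat2 (0.018) and Nfkbia (0.026), Socs1 to Avpi1 (0.053) and Rps19-ps7 (0.055), and Socs3 to Rabep1 (0.030) and Cystm1 (0.034). Socs2 lay closest to Fars2 (0.0085) and Zswim1 (0.021), and 1522 genes were within 0.2 of it. Pim3 had the rarest pattern, with 2 genes within 0.2, Ctnna1 (0.13) and 1700020N18Rik (0.15). With 4 libraries, close matches to a flat gene such as Socs2 are common.

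The genes upstream of STAT5 were measured beside the members. Of 7 receptor and JAK-STAT5 genes, 0 had an adjusted or an unadjusted p-value under 0.05 in edgeR or an adjusted one in DESeq2, 2 were higher and 5 lower without IL-3, and the median log2 fold change was -0.25. Stat5a was the steadiest, with 89.6 and 82.3 normalized CPM with IL-3 and 86.3 and 89.4 without. Stat5b stood at 146 and 96.7 with IL-3, against 94.4 and 110.6 without. The kinase gene Jak2 stood at 184.6 and 84.5 with IL-3, against 101.9 and 124.4 without, and Jak1 at 270.4 and 119 with IL-3, against 123 and 157 without.

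The receptor chains varied more than the STAT5 genes. Il3ra, the chain that binds IL-3, had 38.1 and 117 normalized CPM with IL-3, and 101.9 and 58.7 without. Csf2rb, the signalling chain shared with the GM-CSF receptor, had 468 and 296 with IL-3, against 324 and 55.5 without. Its near copy Csf2rb2, which is used with IL-3 alone, had 1411 and 378 with IL-3, against 485 and 463 without. The counting can split reads between these copies. Abl1ko/IL3- replicate 2, which had the most Cish, had the least Csf2rb of the 4 libraries, while Csf2rb2 was lowest in Abl1ko/IL3+ replicate 2. A link between these levels was not tested.

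Other genes known as STAT5 targets had no common direction either. Of 12, 0 had a p-value under 0.05 before or after adjustment in edgeR, 7 were higher and 5 lower without IL-3, and the median log2 fold change was 0.075. The lowest p-values were those of Ccnd3, a G1 cyclin, with 108 and 56.3 normalized CPM with IL-3 and 63.0 and 312 without, and of Myc, with 221 and 239 with IL-3, against 149 and 199 without. Ccnd3 was high in Abl1ko/IL3- replicate 2 alone. Myc was lower in both Abl1ko/IL3- libraries than in either Abl1ko/IL3+ library (log2 difference -0.40, adjusted p = 0.92 in edgeR). In normalized CPM, 2 of the 12 were lower without overlap, Myc and Ccnd2, and 1 was higher, Mcl1. Over all genes tested, 17.9% were lower and 19.4% higher in this way.

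The remaining SOCS genes, Socs4 to Socs7, were 2 higher and 2 lower with a median of -0.082. Socs7 had 30.4 and 29.3 normalized CPM with IL-3, and 21.5 and 19.4 without (adjusted p = 0.892 in edgeR). Socs5 had 28.9 and 11.8 with IL-3, against 17.0 and 18.2 without. None of the 4 reached an unadjusted p-value under 0.05.

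The proteins that work with the SOCS box form its ubiquitin ligase. Of 4 such genes 3 were higher and 1 lower without IL-3, with a median of 0.43 and 0 p-values under 0.05 before or after adjustment in edgeR. Rnf7, the RING subunit, had 51.8 and 64.7 normalized CPM with IL-3, and 81.2 and 90.5 without (adjusted p = 0.874). Elob, the elongin B adaptor, had 23.8 and 88.0 with IL-3, against 106.2 and 78.4 without.

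Of 6 genes for PIM substrates, 3 were higher and 3 lower without IL-3, with a median of -0.16 and again 0 p-values under 0.05 in edgeR. Bad, a death-promoting BCL2 relative that PIM kinases inactivate, had 19.1 and 36.9 normalized CPM with IL-3, and 14.4 and 16.6 without (adjusted p = 0.871). Eif4b, a translation initiation factor, had 825 and 870 with IL-3, against 602 and 629 without (adjusted p = 0.90). Both genes were lower in each Abl1ko/IL3- library than in each Abl1ko/IL3+ library, as were 17.9% of all genes tested.

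Socs3 also answers to other cytokines, so the genes of the gp130 and G-CSF receptor route were listed. Of these 6 genes, 4 passed the filter, 3 higher and 1 lower without IL-3, with 0 p-values under 0.05 in edgeR. The median of 1.02 rests on the 3 higher ones, Il6ra, Il6st and Csf3r, which had at most 83 counts in any library. Stat3, the lower one, had 142 and 147 normalized CPM with IL-3, against 79.6 and 149 without (log2 difference -0.34). Counts of Il6ra, the IL-6 receptor chain, were 0 and 12 with IL-3, against 19 and 83 without. Il6st, the gp130 chain that it needs, had at most 16 counts in any library, which limits what can be said of both. Counts of Csf3r, the G-CSF receptor, were 29 and 0 with IL-3, against 12 and 45 without.

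**Figure D4:**
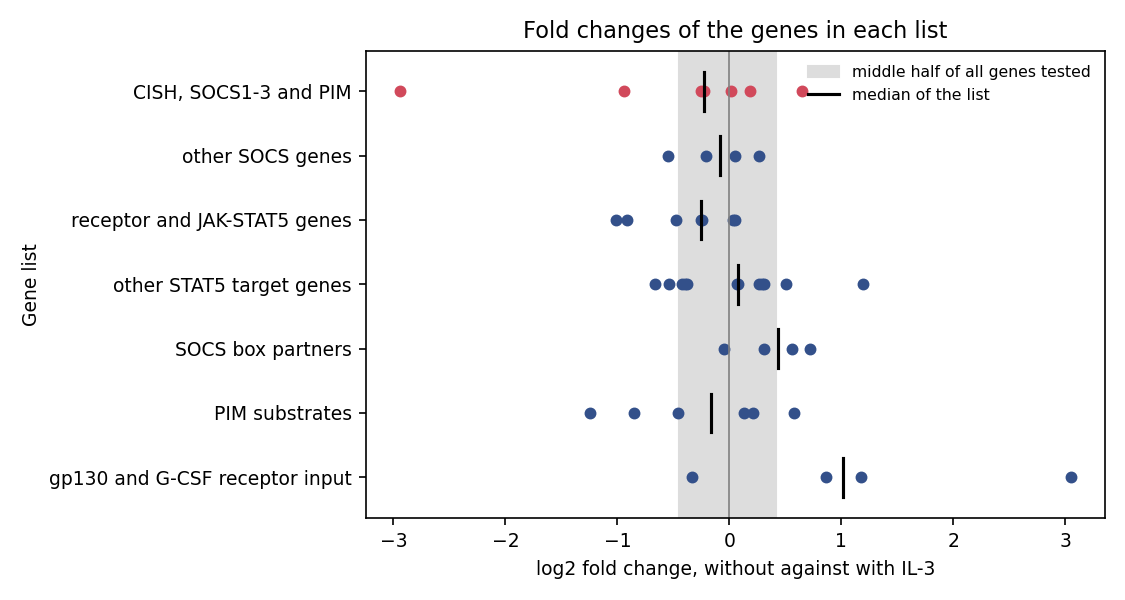
Log2 fold change, Abl1ko/IL3- over Abl1ko/IL3+ (horizontal axis), of each gene tested, 1 row of points per list, with the 7 CISH, SOCS and PIM genes in red, a black line at each list's median and grey from the lower to the upper quartile of all genes tested (-0.45 to 0.41). Pim3 is the leftmost point at -2.94, and 4 of the 7 red points lie within the grey band.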

How the data were processed

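The authors removed ribosomal RNA from total RNA, sequenced libraries on an Illumina HiSeq, aligned reads to GRCm38 with Rsubread, and deposited raw counts per gene from featureCounts. The submitters' processing notes also name STAR, Cuffdiff and mm10. The authors deposited FPKM values (fragments per kilobase and library size) beside the counts; the tool behind them, versions, strand and read pair settings are not given in the sources used here. Both count tables held identical values in 23756 rows.

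Groups (2 of 2 libraries) and replicate numbers follow the labels. The design text calls the experiments biologically duplicated; the p-values measure only the spread between these samples. No library was a repeat of another within counting noise (chi-square over genes). Counts were filtered with filterByExpr, scaled with TMM and tested with edgeR 4.0.16 in R 4.3.3 (quasi-likelihood F test, two-sided, Benjamini-Hochberg over 16535 genes, threshold 0.05). Standard errors came from the fold change and F. Intervals are not adjusted for multiple tests. The floor of 3 counts covers counting error only. Log2 CPM used a prior count of 2. Of these steps, only the edgeR scaling and test were run on simulated counts, and the outcome is not given here.

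Alternatives were DESeq2 1.42.0, relative log expression, library size only, no filter, 10 counts in every library, limma 3.58.1 on log2(FPKM + 1) and log2(FPKM + 0.1), the replicate block and leaving out each library; the crossed pairing was added after seeing the data. All members were named; of each further list, the 2 genes with the lowest p-values were named, with all receptor and JAK-STAT5 genes, and the 2 genes nearest in pattern to each member. Csf3r, Stat3, Ccnd2, Mcl1, Gm17040, Gm17041, Gm26885 and the marker genes named were added for the results they stand beside. The members and lists were chosen with earlier results of these data known. Of the marker lists, macrophage markers summed to between 47.4 and 279 CPM and T lineage markers to at most 5.71 CPM. Promoters are from RefSeq (GRCm38.p6), and gene models from GENCODE M21, whose coordinates equal those of the count table for all 7 genes. One further gene list is not reported here.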

Additional observations from a re-analysis of the deposited data

How the results depend on the processing

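The number of the 7 genes with an adjusted p-value under 0.05 was 0 in edgeR and 1, Pim3, with DESeq2's Wald test, and 0 under the 12 other alternatives. The cause was not tested. The median log2 fold change of the members lay between -0.39 and -0.024 under all alternatives, and was -0.044 with the replicate number as a block and -0.043 with the pairs crossed. The numbers do not mark shared cultures in the labels, and deviations of same-numbered libraries correlated at -0.194 across genes, so the crossing was tried. Neither block gave a call (0 members, 0 genes in all). At an unadjusted p under 0.05, the replicate block called 548 genes and the crossed pairs 1136, in each case with 1 member; since the crossing was picked from these deviations, a higher count is partly built in. Leaving out 1 library moved the log2 fold change of Socs1 between -0.79 and 0.74, of Socs2 between -0.17 and 0.24, of Socs3 between -0.68 and 0.082, and of Pim2 between -0.25 and 0.84, so their direction depends on single libraries, while Cish, Pim1 and Pim3 kept theirs. Without Abl1ko/IL3- replicate 1, 15 genes in all were called, none of them a member; each such fit leaves 1 group with a single library, which is assumed to vary like the other group. Every member had at least 63 counts in each library.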
